A study of Bos taurus with 21 samples.

Results

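Calcium reaches milk through the secretory cells of the mammary gland, and 6 genes of that route were followed here in the somatic cells of milk from 21 Holstein cows. They were ATP2B1 and ATP2B2, ATP2C1, ATP2A2, STIM1 and ORAI1, chosen by name as rows of the deposited count tables. All 6 symbols were present, among 13570 gene rows, of which 12333 had a count in at least 1 cow and were tested. Milk somatic cells are the cells shed or recruited into milk, mostly leukocytes together with some epithelial cells from the gland. The cows formed a high yielding group (HY, 9 cows) and a low yielding group (LY, 12 cows), with no treatment applied. The paper coded these groups on the Korea Type-Production Index, from which its milk yield value was also derived. All were Holsteins of parity 2 to 4, and lactation period was 41 to 268 days in HY and 52 to 270 days in LY. Age was not used here, and each cow gave 1 library.

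In a lactating mammary cell, calcium enters from the blood side, is stored in the endoplasmic reticulum and Golgi, and leaves into milk either packed in casein micelles or pumped across the apical membrane. ORAI1 is the pore of the store-operated calcium channel of the plasma membrane, and STIM1 is the sensor in the endoplasmic reticulum that opens it when the store empties. ATP2A2 (SERCA2) pumps calcium into the endoplasmic reticulum, ATP2C1 (SPCA1) pumps calcium and manganese into the Golgi, and ATP2B1 and ATP2B2 (PMCA1 and PMCA2) pump calcium out of the cell. PMCA2 is known as the pump of the apical membrane of secretory mammary epithelium. Leukocytes use the same machinery, and STIM1 with ORAI1 carries the calcium entry that follows stimulation of the T cell receptor. Sums over milk cells thus cover several cell types, and fewer cells of a type cannot be told apart from less RNA per cell.

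The deepest library held 28541904 counts on genes and the shallowest 7878557 (median 11826889). No library was a repeat deposit of another (chi-square of at least 36.2 per degree of freedom for any pair). Markers of mammary epithelium were found in the tables for 15 of 15 listed genes, of neutrophils for 7 of 10, of macrophages for 8 of 10 and of T cells for 8 of 9. None of the epithelial, neutrophil, macrophage or T cell markers present was at 0 in any cow. The summed epithelial level, without the milk protein genes LALBA and GLYCAM1, ran from 445.3 to 19680 CPM. Abundant genes weigh most in such a sum. In the epithelial one, mean counts were 21920 for XDH, 8047 for BTN1A1 and 7548 for LTF, and 4148 for KRT19, the next. In the macrophage sum, CD68 had a mean of 28930 counts and CSF1R, the next, 7635. In the neutrophil sum, S100A12 had a mean of 40340 counts and S100A9, the next, 14640. The summed levels ran from 1815 to 14730 CPM for neutrophils, from 1228 to 5906 CPM for macrophages and from 50.5 to 1331 CPM for T cells. CPM stands here for counts relative to the library size, scaled with the TMM factors of edgeR.

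All 6 genes were measured in every cow except ATP2B2, which had no count in 1 cow and few counts in the others. CPM is not divided by transcript length, so these values order cows within a gene and not the genes among themselves. ATP2B1 ranged from 41.5 CPM in HY cow 3262 to 573 CPM in HY cow 2920, with a median of 220.4 CPM. ATP2B2 had between 0 and 109 counts per cow, with a median of 31. Its level ranged from 0 CPM in LY cow 2893, where a count of 0 allows up to 0.344 CPM (3 counts, counting error only), to 5.78 CPM in HY cow 3262, with a median of 2.35 CPM. The cow with the lowest ATP2B1 was thus the cow with the highest ATP2B2.

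ATP2C1 of the Golgi ranged from 16.4 CPM in LY cow 2893 to 97.1 CPM in HY cow 3064, with a median of 66.7 CPM. ATP2A2 of the endoplasmic reticulum ranged from 57.8 CPM in HY cow 3262 to 228.6 CPM in HY cow 2920, with a median of 166.7 CPM. Its highest level was 3.96 times the lowest, the narrowest range of the 6 genes, against 13.8 times for ATP2B1. STIM1 ranged from 6.88 CPM in HY cow 3280 to 46.3 CPM in LY cow 7643, with a median of 24.3 CPM. ORAI1 ranged from 8.26 CPM in LY cow 3272 to 79.6 CPM in HY cow 3262, with a median of 22.1 CPM. HY cow 3262 was therefore lowest for ATP2B1 and ATP2A2 and highest for ATP2B2 and ORAI1, and it was also the cow with the largest share of casein counts.

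**Figure D1:**
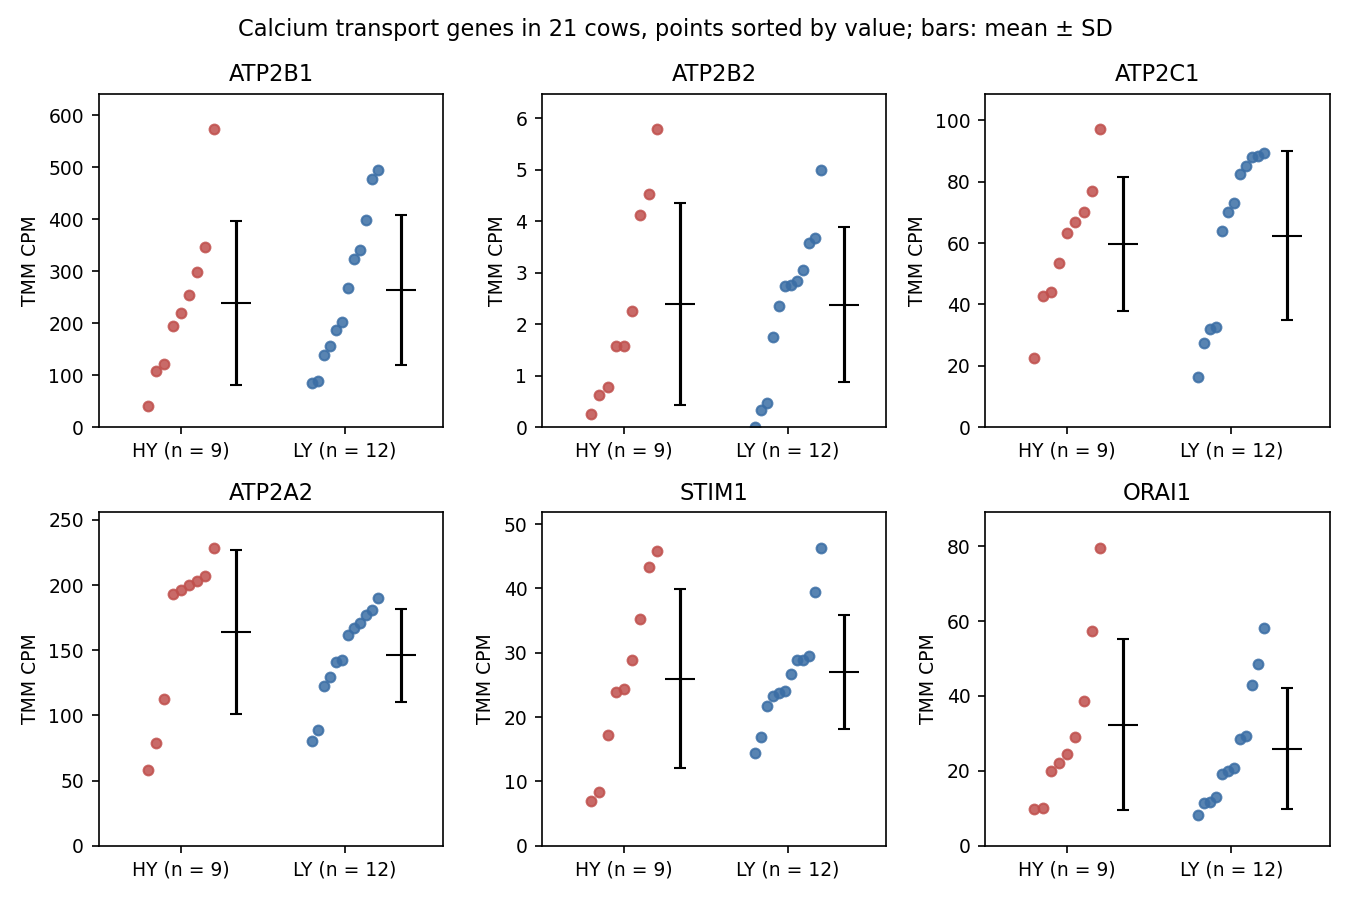
The 6 panels show the level of each gene (vertical axis, TMM-scaled CPM on a linear scale from 0) in 9 HY cows (red) and 12 LY cows (blue), with points sorted by value and the mean ± SD as a black bar beside each group. The groups overlap for every gene, and ATP2B2 lies under 6 CPM in every cow.

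The first comparison set the 6 genes against casein, the main protein of milk, as a measure of secretory transcripts in the sample. ATP2B2 and ORAI1 were higher in cows with more casein, ATP2A2 was lower, and ATP2B1, ATP2C1 and STIM1 did not pass the test. CSN1S1, CSN1S2, CSN2 and CSN3, which encode the alpha-s1, alpha-s2, beta and kappa caseins, were summed to 1 casein level per cow (log2 CPM). They held from 0.0876% of the counts in HY cow 3235 to 44.2% in HY cow 3262, with a median of 9.27%. The casein level spanned 10.1 on the log2 scale, and 4 cows (HY 3235, HY 2814, LY 7643 and HY 3057) lay below the widest gap, of 2.13, from the other 17. With edgeR's quasi-likelihood test and Benjamini-Hochberg adjustment over 12333 genes, 3 of the 6 genes had an adjusted p under 0.05, beside 20.9% of all genes tested. A share of 11.4% of all genes was higher with casein and 9.58% was lower, and 32.3% had an unadjusted p under 0.05, as had 4 of the 6.

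ATP2B2 rose by 0.24 ± 0.08 (SE) on the log2 scale for each log2 unit of casein (edgeR adjusted p = 0.0409, n = 21), which is 17.9% for each doubling of casein and 5.27-fold over the whole casein range. Its slope exceeded that of 91.5% of the genes tested. ORAI1 rose by 0.14 ± 0.05 (edgeR adjusted p = 0.0437), or 2.73-fold over the range, a slope above that of 85% of the genes. ATP2A2 changed by -0.10 ± 0.03 (edgeR adjusted p = 0.0473), or 1.98-fold lower at the top of the casein range than at its bottom. STIM1 had a slope of -0.11 ± 0.04 with an edgeR adjusted p of 0.0912. The slopes of ATP2B1 (-0.04 ± 0.07, edgeR adjusted p = 0.747) and of ATP2C1 (-0.02 ± 0.05, edgeR adjusted p = 0.806) were smaller than their errors over the 21 cows.

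The casein slopes of all 6 genes kept their sign when parity, lactation period or the mapping class was added to the model, but the 3 calls lay close to the threshold. Over 9 other choices of scaling, filter, tool, covariate, cows or casein measure, ORAI1 was called in 5 and ATP2A2 in 4, and ATP2B2 in 8 of the 8 that tested it. ATP2B2 was not called in either of 2 settings added after the values were seen, the 17 cows above the casein gap and the percent of reads outside annotated genes as a covariate (edgeR adjusted p = 0.136 and 0.0576). When 1 cow was left out at a time, ATP2B2 was called in 11 of 21 fits, ORAI1 in 12 and ATP2A2 in 4. The number of genes called fell from 3 to 0 without HY cow 3057, 3075, 3262 or 3280 or LY cow 3198 or 3369. STIM1 passed the threshold without HY cow 3235 (slope -0.14, edgeR adjusted p = 0.0289) or without LY cow 3264 (slope -0.13, edgeR adjusted p = 0.0442). Within the 16 cows of the lower mapping class only ATP2B2 was called, with a slope of 0.36 (edgeR adjusted p = 0.0228), beside 11.6% of all genes.

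Among the 17 cows above the casein gap the slopes were steeper for every one of the 6 genes, and 9.05% of all genes were called. ORAI1 was the only one of the 6 called, at 0.32 ± 0.09 (edgeR adjusted p = 0.0211). ATP2B2 had a slope of 0.35 ± 0.14, ATP2A2 of -0.17 ± 0.07 and STIM1 of -0.18 ± 0.08 (edgeR adjusted p = 0.136, 0.135 and 0.163). ATP2B1 had -0.31 ± 0.11 and ATP2C1 -0.15 ± 0.09 (edgeR adjusted p = 0.0899 and 0.315), against -0.04 and -0.02 over the 21 cows. The difference between these fits was not tested.

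**Figure D2:**
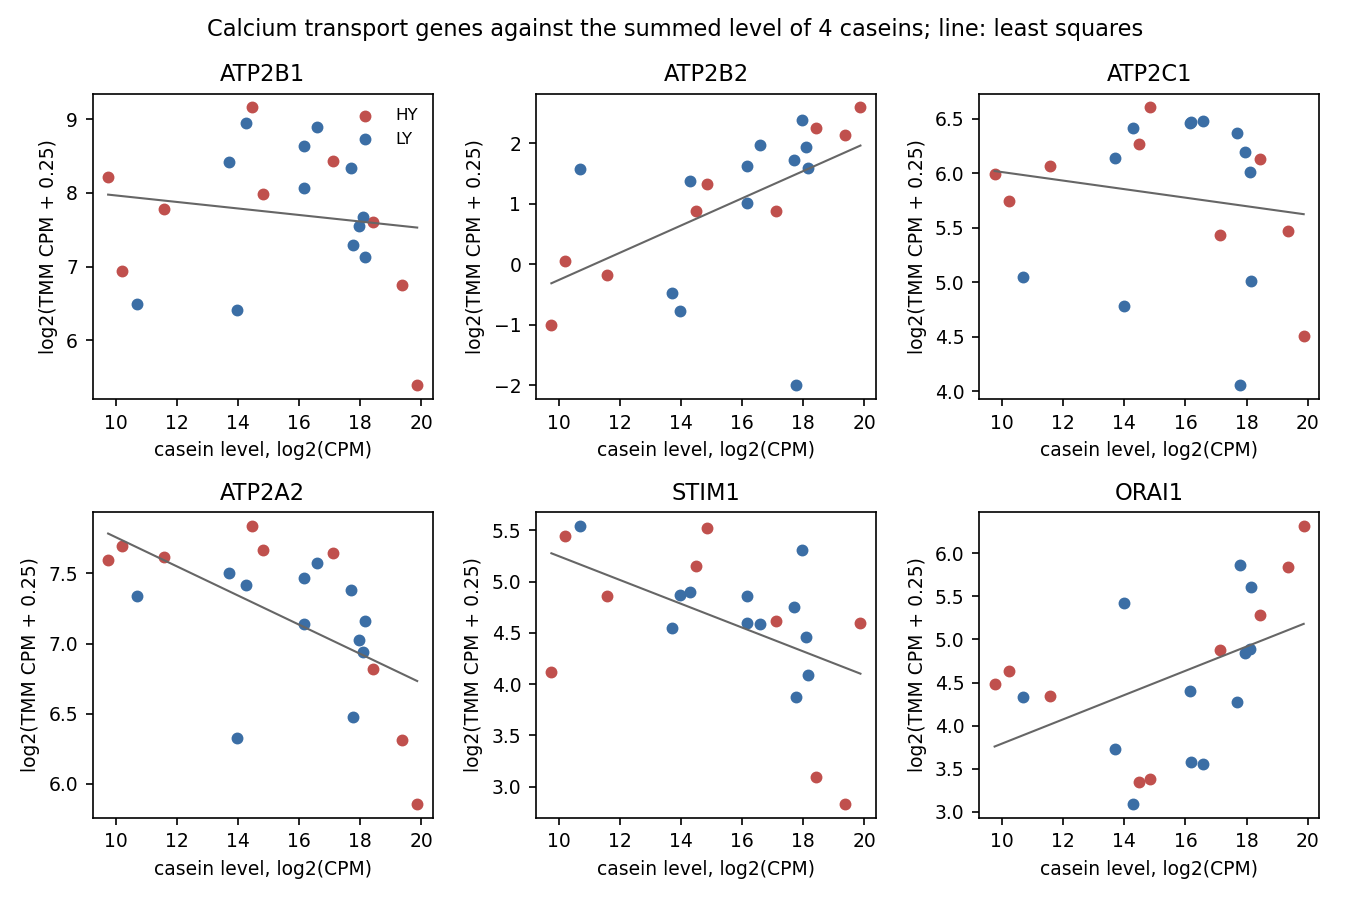
Each panel plots the log2 level of 1 gene (vertical axis, log2 of TMM-scaled CPM + 0.25) against the casein level (horizontal axis, log2 CPM summed over 4 caseins) in 9 HY (red) and 12 LY (blue) cows, with a least squares line. The lines of ATP2B2 and ORAI1 climb and those of ATP2A2 and STIM1 descend, and the 4 cows at the left stand apart from the other 17.

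Correlations of the log2 levels with the casein level gave the same signs, with p-values from 100000 permutations adjusted over 12333 genes. ATP2A2 had r = -0.581 (permutation p = 0.00605, adjusted p = 0.0356) and rho = -0.64 (adjusted permutation p = 0.0187). ATP2B2 had r = 0.544 (permutation p = 0.0109, adjusted p = 0.0539) and rho = 0.708 (permutation p = 0.00052, adjusted p = 0.00632). ORAI1 had r = 0.464 (permutation p = 0.0354, adjusted p = 0.124) and rho = 0.56 (adjusted permutation p = 0.0514), so that its call in the count model was not matched in either coefficient. Adjusted permutation p was under 0.05 for 19.7% of all genes with r and for 17.5% with rho. Without the 2 cows most distant in casein level, r was -0.539 for ATP2A2, 0.421 for ATP2B2 and 0.581 for ORAI1. Among the 17 cows above the gap, r was -0.559, 0.5 and 0.73, respectively.

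For ATP2B2 the relation with casein was followed in each group. Its r was 0.946 in the 9 HY cows and 0.167 in the 12 LY cows. These LY cows include cow 2893, with no ATP2B2 count at a casein share of 16.9%, and cow 7643, with 2.74 CPM at a casein share of 0.164%. The slope was 0.34 ± 0.08 in HY (edgeR adjusted p = 0.0265) and 0.11 ± 0.15 in LY (edgeR adjusted p = 0.695). Among all genes tested, 653 of 11802 were called within HY and 1013 of 12219 within LY. The difference of the ATP2B2 slopes, 0.22 ± 0.16, did not pass the test of an interaction term (edgeR adjusted p = 0.888), where 0 of 12333 genes passed. For the other 5 genes this difference had edgeR adjusted p from 0.896 to 1.

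The remaining genes of calcium handling were described by a list of 61 symbols, of which 40 were in the tables and tested. With casein level 5 were higher, 6 were lower and 29 did not pass the test, and the median slope was -0.04 beside -0.01 over all genes tested. Over all genes, 11.4% were higher, 9.58% lower and 20.9% called in either direction. The largest slopes belonged to genes of signalling and buffering. CALB1, the calcium buffer calbindin, rose by 1.29 ± 0.21 per log2 unit of casein (edgeR adjusted p = 7.09e-05) and ranged from 0 to 192.4 CPM, with a median of 1.58 CPM. PTHLH, the parathyroid hormone-related protein that the lactating gland secretes, rose by 0.98 ± 0.07 (edgeR adjusted p = 1.57e-10) and ranged from 0 to 82.5 CPM. These slopes were near those of the caseins themselves, which had a median of 1.01 and which define the axis. Only CALB1 and PTHLH passed when the 17 cows above the casein gap were fitted alone (9.05% of all genes called), and CALB1, PTHLH, NUCB2 and CALR when the 16 cows of the lower mapping class were (11.6%). Without HY cow 2814, or without LY cow 7643, 6 of the 11 calcium handling genes were called.

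NUCB2, a nucleobindin that binds calcium, rose by 0.20 ± 0.03 (edgeR adjusted p = 0.000108). EFHA1 (now MICU2), a regulator of the mitochondrial calcium uniporter, rose by 0.11 ± 0.03, and CALM2, one of the calmodulin genes, rose by 0.09 ± 0.03 (edgeR adjusted p = 0.0117 and 0.0238). The 6 that fell included ORAI2 (-0.16 ± 0.04) and ORAI3 (-0.10 ± 0.03), the paralogs of ORAI1. ORAI1 therefore had a positive slope and both of its paralogs negative ones, with edgeR adjusted p of 0.0437 for ORAI1, 0.00985 for ORAI2 and 0.0325 for ORAI3. ATP2A3 (-0.15 ± 0.05), the SERCA pump known from blood cells, fell like ATP2A2. The calcium-binding proteins CALR (-0.14 ± 0.03), HSPA5 (-0.09 ± 0.03) and NUCB1 (-0.11 ± 0.04), of the endoplasmic reticulum and Golgi, completed the group. The median level of CALR was 874.1 CPM and that of HSPA5 was 823.3 CPM.

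**Figure D3:**
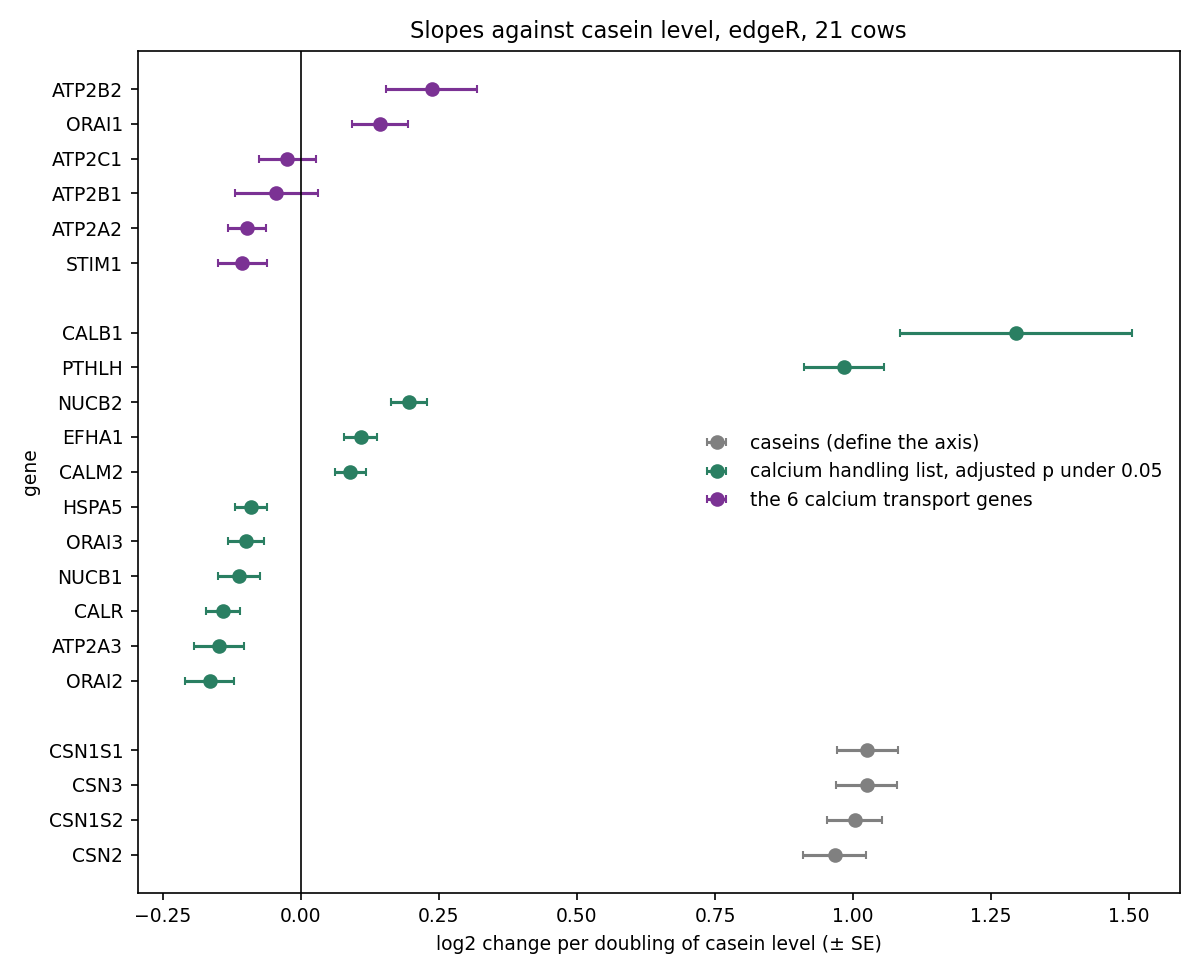
Points show the change of a gene (horizontal axis, log2 per log2 unit of casein level) with the SE as bars for the 6 calcium transport genes (purple), the 11 other calcium handling genes with an adjusted p under 0.05 (green) and the 4 caseins (grey). CALB1 and PTHLH lie close to the caseins, while the 6 transport genes lie between -0.11 and 0.24.

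Markers of epithelium and macrophages moved with casein over the same cows, and those of neutrophils and T cells did not pass the test. The summed epithelial level rose with casein (r = 0.891, rho = 0.936, permutation p = 1e-05 for each, the smallest that 100000 permutations give). Positive slopes that passed the edgeR test were found for 13 of 15 epithelial markers, among them LALBA and GLYCAM1, the milk protein genes left out of the sum. The summed macrophage level had r = -0.766 (permutation p = 3e-05) and rho = -0.762 (permutation p = 8e-05) with casein, and 6 of 8 macrophage markers were lower. Of the neutrophil markers 0 of 7 and of the T cell markers 0 of 8 were called in edgeR, 0 of each had an unadjusted p under 0.05, and the median slopes were -0.04 and -0.06. The share of all genes called was 11.4% higher and 9.58% lower. Their part in the slopes of the calcium genes was not tested.

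The calcium genes themselves were then set against these marker sums. ORAI1 followed the epithelial sum with r = 0.707 (permutation p = 0.00031, adjusted p = 0.00308) and rho = 0.67. ATP2A2 and STIM1 went the opposite way, with r = -0.725 (adjusted permutation p = 0.0027) and rho = -0.714 for ATP2A2 and r = -0.706 (adjusted permutation p = 0.00322) and rho = -0.669 for STIM1. The background was 25.1% of all genes with an adjusted permutation p under 0.05. ATP2B2 had r = 0.428 (adjusted permutation p = 0.141) and rho = 0.569 (adjusted permutation p = 0.0465, beside 18.1% of all genes). Without the 2 cows most distant in the epithelial sum, r was 0.575 for ORAI1, -0.559 for ATP2A2, -0.665 for STIM1 and 0.286 for ATP2B2. Within the 16 cows of the lower mapping class these values were 0.736, -0.725, -0.676 and 0.502.

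STIM1 followed T cell markers more closely than nearly every other gene. Its r with the summed T cell level was 0.831 and its rho 0.849 (permutation p = 1e-05 for each, adjusted p = 0.00149 and 0.00154), beside 4.18% of all genes with an adjusted p under 0.05 for r and 3.2% for rho. This r exceeded that of 99.4% of 9628 genes with a mean of at least 10 counts. It was 0.761 without the 2 most distant cows, 0.8 within the 16 cows of the lower mapping class, 0.885 in HY and 0.826 in LY. The other 5 genes had r between -0.394 and 0.348 with the T cell sum, none with an adjusted permutation p of r under 0.27. ORAI1, the partner of STIM1 in the channel, had the r of -0.394.

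With the macrophage sum, 1 of the 6 genes passed, ATP2B2 with rho = -0.606 (permutation p = 0.00405, adjusted p = 0.0295) but not with r = -0.479 (adjusted permutation p = 0.108), where 17.1% of all genes passed for rho and 19.1% for r. With the neutrophil sum 0 of the 6 passed, beside 5.01% of all genes for r and 6.75% for rho, and the lowest unadjusted permutation p was 0.0131, for the r of -0.529 of ATP2B2.

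The 6 genes did not vary together. ATP2B1, ATP2C1 and ATP2A2 were high in the same cows, with r = 0.747 between ATP2B1 and ATP2C1, 0.75 between ATP2B1 and ATP2A2 and 0.662 between ATP2C1 and ATP2A2. ORAI1 was opposite to each of these pumps, with r = -0.801, -0.787 and -0.818, and had r = -0.526 with STIM1. ATP2B2 stood apart from all, with r between -0.144 and 0.311. These values describe the 21 cows, which share 1 library for all genes, and wide correlations were common in these data. For ATP2B1 the 5th and 95th percentiles of r over 9627 genes were -0.773 and 0.755, so that its pairs with ATP2C1 and ATP2A2 lay inside that range. The pairs of ORAI1 with the pumps lay beyond the 5th percentile of its own distribution, -0.773.

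Library measures moved with this axis as well, and they were chosen after values of the members had been seen. The mean log2 level of 74 ribosomal protein genes had r = 0.812 with ORAI1, -0.825 with ATP2B1, -0.818 with ATP2A2 and -0.621 with ATP2C1 (adjusted permutation p = 0.000256, 0.000413, 0.000256 and 0.0138). The corresponding rho values were 0.808, -0.866, -0.729 and -0.639, and 31.5% of all genes passed for r and 26.8% for rho. The percent of reads that the authors' counting placed outside annotated genes, 13% to 31.9% per cow, had r = 0.731 with ATP2B1, 0.594 with ATP2A2 and -0.609 with ORAI1 (adjusted permutation p = 0.0128, 0.045 and 0.0363, with 11.4% of genes passing). For that measure rho was 0.61, 0.382 and -0.517, with no adjusted permutation p under 0.08, where 1.54% of all genes passed. With that percent as a covariate, the casein slope was -0.09 for ATP2A2 (edgeR adjusted p = 0.0355), 0.23 for ATP2B2 (edgeR adjusted p = 0.0576) and 0.12 for ORAI1 (edgeR adjusted p = 0.081).

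**Figure D4:**
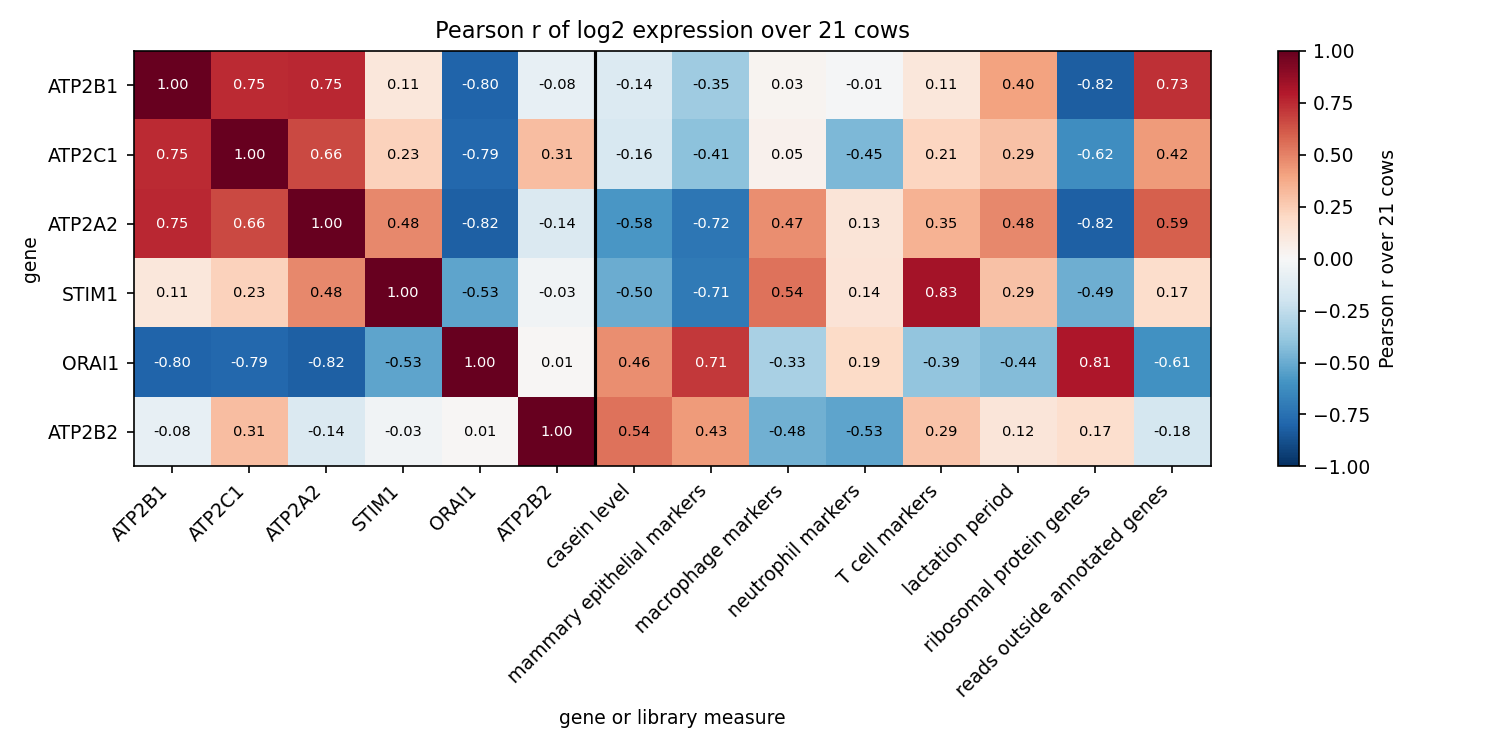
Cells give Pearson r over 21 cows (colour from -1 in blue to 1 in red, value printed) between each of the 6 genes (rows) and the 6 genes, the casein level, marker sums, lactation period and library measures (columns). ATP2B1, ATP2C1 and ATP2A2 form a positive block opposite to ORAI1, and STIM1 has its highest value, 0.83, with T cell markers.

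The genes most like each member, by Pearson r of log2 levels over the 21 cows among 9627 genes, were taken as the top 3. ATP2B1 was most like GALNT1 (r = 0.937), UHRF1BP1L (0.924) and LIN52 (0.924). ATP2C1 was most like IPO8, SUPT16H and GCC2 (0.96 each), and ATP2A2 was most like ZZEF1 (0.947), KHDRBS1 (0.944) and TNFSF8 (0.944). For the pair of the channel, STIM1 was most like RAB37 (0.93), EXTL3 (0.922) and ATP8B2 (0.92), and ORAI1 was most like PTPN18 (0.922), SERF2 (0.921) and COX6B1 (0.902). ATP2B2 was most like RRAS2 (0.862), PTPN13 (0.826) and PLEKHD1 (0.821).

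The second comparison asked whether the genes changed over lactation. None of the 6 genes passed the test against lactation period, where 3 genes of the whole table, or 0.0243%, did so in edgeR and 22.3% had an unadjusted p under 0.05. The largest slope was that of ORAI1, -0.52 ± 0.21 on the log2 scale per 100 days (edgeR p = 0.0239, adjusted p = 0.165). ATP2B1 had a slope of 0.44 ± 0.23 and ATP2A2 one of 0.26 ± 0.13 (edgeR adjusted p = 0.261 and 0.262). ATP2C1, STIM1 and ATP2B2 had slopes of 0.20 ± 0.18, 0.17 ± 0.17 and -0.08 ± 0.36. The sampling days left a gap, with 8 cows between day 41 and day 108 and 13 cows between day 167 and day 270.

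ORAI1 had a median of 34 CPM in the earlier and 19.8 CPM in the later cows, with overlapping ranges of 13 to 79.6 CPM and 8.26 to 48.6 CPM. ATP2B1 had medians of 176 and 297.6 CPM, and ATP2A2 medians of 117.5 and 176.8 CPM, in the same order. STIM1 had medians of 22.4 and 28.8 CPM, ATP2C1 of 58.8 and 73.1 CPM, and ATP2B2 of 3.21 and 2.25 CPM. The casein share had a median of 21.5% in the earlier and 4.34% in the later cows. Its ranges overlapped, at 0.141% to 44.15% and 0.0876% to 26.83%. Casein level had r = -0.139 with lactation period over the 21 cows (permutation p = 0.546). The lactation slope of ORAI1 was -0.41 per 100 days with casein level as a covariate, and it did not pass the test. With the percent of reads outside annotated genes as a covariate, the slope of ATP2B1 was 0.11 and that of ORAI1 was -0.25, and the share of genes with an unadjusted p under 0.05 was 8.16%. Of the 40 other calcium handling genes tested, 0 passed against lactation period in edgeR and 7 had an unadjusted p under 0.05, and the lowest adjusted p was 0.0676, for SDF4 (-0.46 ± 0.12).

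**Figure D5:**
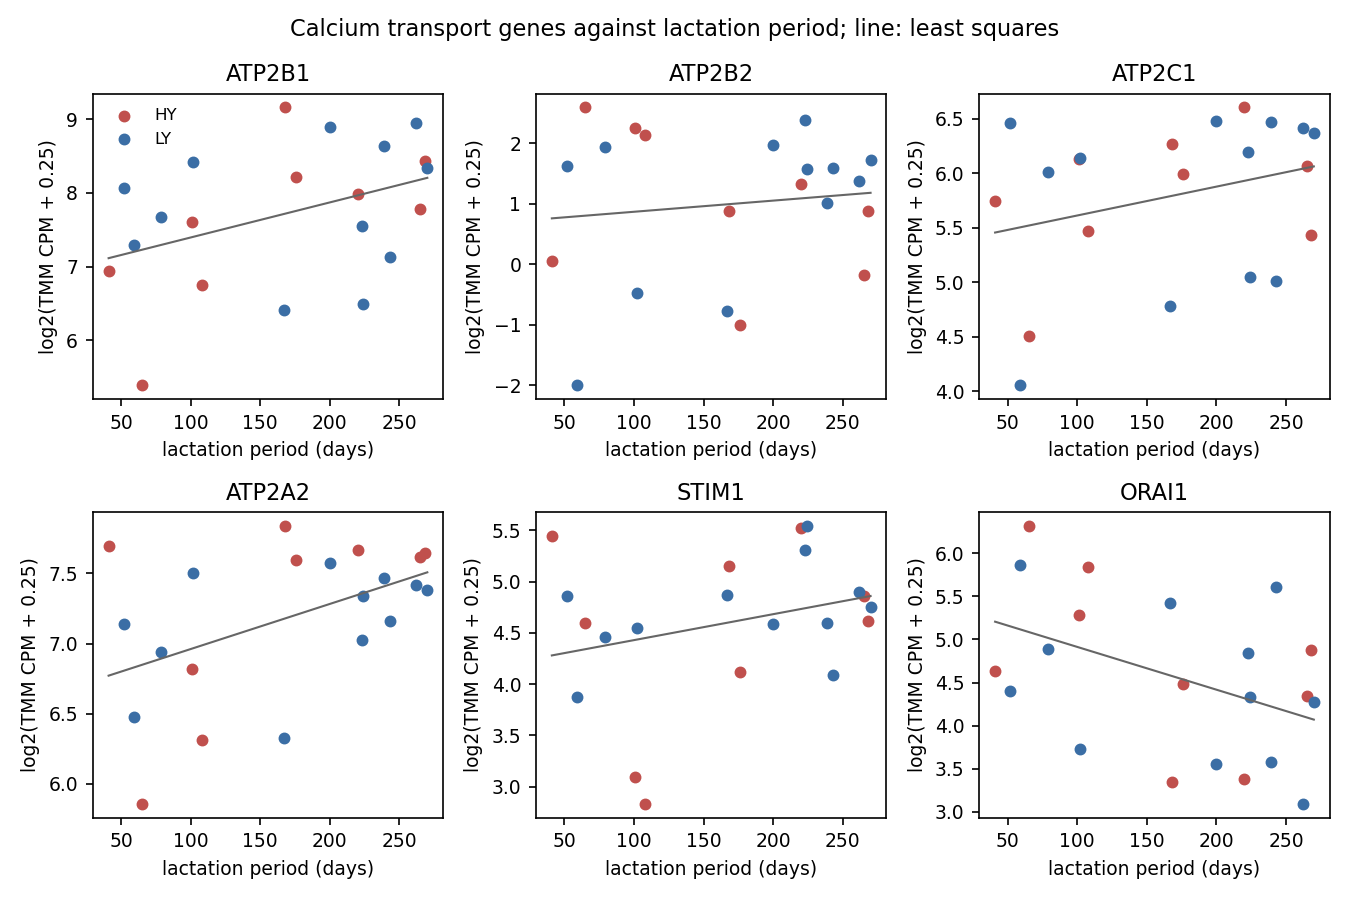
Each panel plots the log2 level of 1 gene (vertical axis, log2 of TMM-scaled CPM + 0.25) against lactation period (horizontal axis, days) in 9 HY (red) and 12 LY (blue) cows, with a least squares line. ORAI1 descends and ATP2B1 and ATP2A2 climb over the 41 to 270 days, with cows spread widely about each line and no call after adjustment.

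The last comparisons concerned the milk traits, whose unit the labels do not give. The paper describes milk yield as a breeding value, and the labels do not say what kind of value the others are. By ordinary regression, 0 of the 6 genes and 0% of all genes were associated with milk yield at an adjusted p under 0.05. In that regression 2.49% of all genes had an unadjusted p under 0.05. With edgeR and milk yield as a covariate, 0 of the 6 genes passed, beside 0.105% of all genes. With milk yield as the response, the slopes per log2 unit ran from -21.1 ± 65.3 for ORAI1 to 116.4 ± 107.9 for ATP2A2, with an adjusted p of 0.9999 for each. ATP2A2 had r = 0.24 (permutation p = 0.295) and rho = 0.465 (permutation p = 0.0359) with milk yield, and both had an adjusted p of 1. Over the 21 cows, the values of fat, protein and solids were related to milk yield (r = 0.721, 0.967 and 0.894, rho = 0.731, 0.966 and 0.856, permutation p of at most 0.00027). Milk yield values of the groups did not overlap, with at least 181.1 in HY and at most 86.9 in LY. Within the groups, r of fat with milk yield was -0.153 in HY and 0.598 in LY. For protein it was 0.837 in HY and 0.932 in LY, and for solids 0.721 and 0.858. HY cow 2814 had a solids value of -16.3, where the other HY cows had 15.3 to 41.4, and the solids fits were not repeated without it. Lactation period had r = 0.268 with milk yield over the 21 cows (permutation p = 0.239), 0.664 in HY and 0.788 in LY.

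HY and LY cows did not differ detectably in any of the 6 genes, where 0% of genes passed in edgeR and 4.7% had an unadjusted p under 0.05. The HY cows had 9.89 to 79.6 CPM of ORAI1 around a median of 24.5 CPM, and the LY cows had 8.26 to 58 CPM around a median of 20.3 CPM. The log2 mean of ORAI1 was 4.72 ± 1.004 for the 9 HY cows and 4.46 ± 0.89 for the 12 LY cows (± SD, two-sided exact permutation p = 0.536). STIM1 had means of 4.47 ± 0.96 and 4.70 ± 0.46, with the lowest exact permutation p of the 6 genes, 0.484. ATP2A2 had means of 7.23 ± 0.72 and 7.14 ± 0.40 (exact permutation p = 0.744). The exact permutation p was 0.593 for ATP2B1, 0.965 for ATP2C1 and 0.991 for ATP2B2, over 293930 splits of the cows.

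Fat, protein and solids gave 0 calls among the 6 genes in edgeR, beside 0%, 0% and 0.0324% of all genes, and none of the 6 had an unadjusted p under 0.05, beside 2.87%, 2.77% and 3.13% of all genes. Per SD of the trait, the slopes of the 6 genes lay between -0.06 and 0.13 for fat, between -0.09 and 0.13 for protein and between -0.08 and 0.15 for solids. Of the 40 other calcium handling genes, 0 passed in any of the trait comparisons or between HY and LY, and at most 2 had an unadjusted p under 0.05.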

How the data were processed

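Total RNA of milk somatic cells from 21 Holstein cows, collected by hand milking after the evening milking, was sequenced on an Illumina instrument. The authors trimmed reads with Trimmomatic, mapped them to bosTau7 with TopHat2 and Bowtie2, and counted them on genes with HTSeq, with SAMtools in between. Tool versions are not given in the sources used here. The deposited values were raw counts per gene. Rows of reads that HTSeq placed on no gene were left out, as was a row without a gene name (0.036% to 0.151% of the counts of a cow), and 23 rows carried a calendar date for a symbol. The groups HY and LY and the traits came from the labels.

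Counts were tested with the quasi-likelihood test of edgeR 4.0.16 in R 4.3.3 after TMM scaling, over 12333 genes with Benjamini-Hochberg adjustment and a threshold of 0.05. The SE of a slope was its size divided by the square root of the F statistic. Milk yield was regressed on log2(CPM + 0.25) by ordinary regression, following the study. Correlations used 100000 permutations (numpy 2.4.6), with p adjusted over the same genes, and 66 relations were computed over cows for the members and library measures. HY and LY were compared with a two-sided exact permutation test beside edgeR. Depth ran from 7878557 to 28541904 counts, and each cow is 1 library, so errors are between cows. No length, coordinate or sequence was used, since the tables at hand were of another genome build.

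The mapping class (16 cows lower and 5 cows higher, 1 of these in HY and 4 in LY) followed the study's mapping rates. The genes named were the 6 members, the 4 caseins, the calcium handling genes past the threshold against casein, the 3 genes most like each member, and a few cell type markers. Alternatives were DESeq2 1.42.0 size factors and its Wald test, milk protein genes left out of scaling, a minimum of 10 counts in every cow, covariates, robust regression (MASS), another pseudocount and each cow left out. The edgeR fits were also run on simulated counts, drawn independently for each gene, with changes larger than those of the members. That run does not measure how well changes as small as those of the members are recovered. The B cell marker list is not reported here. The members and lists were chosen with earlier results of these data known.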

Additional observations from a re-analysis of the deposited data

How the results depend on the processing

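The number of the 6 genes called against casein level, 3, depended on the settings, as did the share of all genes called, which was 20.9% in the reported fit. It was 1 in the 16 cows of the lower mapping class (11.6% of all genes), 1 with the mapping class as a term (16.9%) and 1 with CSN2 alone as the casein level (18.8%). It was 1 among the 17 cows above the casein gap (9.05%) and 1 with reads outside annotated genes as a covariate (23.8%), the last pair chosen after seeing the data. It ran from 0 to 3 when each cow was left out (15.6% to 23.2% of all genes). Over the 11 other settings it ran from 1 to 3, with 9.05% to 27.6% of all genes called. The cause was not tested. ATP2B2 could not be tested with at least 10 counts in every cow, and it had 0 to 109 counts per cow.

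Of 785 values of single genes under alternatives, 24 changed sign under a planned or added alternative and 45 when a cow was left out, and 0 of these passed the threshold (lowest adjusted p 0.754). The casein slope of ATP2B1 was 0.0092 with reads outside annotated genes as a covariate. The lactation slope of ATP2B2 was 0.10 with parity, 0.18 with casein level and 0.16 with reads outside annotated genes as a covariate. The milk yield slope of ATP2B2 was -11.1 with a pseudocount of 1 and -7.88 in multiple regression with parity and lactation period. That of STIM1 was -7.03 in robust and -30.1 in multiple regression, and that of ORAI1 was 16.2 in multiple regression. With milk yield as a covariate of edgeR, ATP2B1 had 0.0063 and ATP2B2 had -0.0817. The difference of HY minus LY in the 16 cows was 0.0175 for ATP2B2 and 0.0131 for STIM1, and with the mapping class as a term it was 0.0247 for ATP2C1 and 0.0469 for STIM1. The fat slope in the 16 cows was 0.0023 for ATP2B2, -0.0675 for ATP2A2 and -0.0492 for STIM1. With lactation period as a covariate, the fat slope of ORAI1 was -0.0160, the protein slope was -0.0503 for ATP2C1 and 0.11 for ORAI1, and the solids slope was -0.0210 for ATP2B1, -0.0836 for STIM1 and 0.0503 for ORAI1.

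With each cow left out, the casein slope ran from -0.0883 to 0.0098 for ATP2B1 and from -0.0452 to 0.0130 for ATP2C1, and the lactation slope of ATP2B2 from -0.19 to 0.12. The milk yield slope ran from -37.2 to 9.93 for ATP2B1, from -51.4 to 22.1 for ATP2B2, from -37.2 to 74.1 for ATP2C1, from -44.2 to 72.6 for STIM1 and from -48.2 to 12.2 for ORAI1. HY minus LY ran from -0.41 to 0.0028 for ATP2B1, from -0.29 to 0.14 for ATP2B2, from -0.18 to 0.0385 for ATP2C1 and from -0.20 to 0.0640 for STIM1. The number called stayed at 0 of the 6 in every other comparison and setting run, with the share of all genes called against lactation period at up to 6.75%, in milk yield at up to 0.105%, for solids at up to 0.066% and between HY and LY at up to 0.00811%. No paired analysis was possible because the replicate numbers only name the cows and come from no label.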
